A study of Mus musculus with 12 samples.

Results

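Messenger RNA of 10 genes of insulin and insulin-like growth factor (IGF) signalling was measured in the left ventricle of mice that lack Gch1 in their cardiomyocytes. The genes were taken from the count table by symbol, a rule that used no measured value. The list of symbols was drawn up with earlier results of these data known. They were Igf1, Igfbp3, Insr, Igf1r, Irs1, Irs2, Pik3r1, Akt1, Akt2 and Tbc1d4, and all 10 had a row among the 26921 genes of the count table. The data were RNA-seq read counts per gene from 12 hearts of mice aged 16 weeks. WT mice (n = 6) were Gch1 flox/flox littermates without Cre, and cmGch1 KO mice (n = 6) were Gch1 flox/flox with 1 copy of a Cre recombinase transgene under the α-myosin heavy chain promoter, which is active in cardiomyocytes. Both groups thus carried the floxed alleles, and no group carried Cre alone, so that Cre and the loss of Gch1 cannot be told apart here. The tissue held all cell types of the ventricle, and in such bulk samples fewer cells of a type and less RNA per cell cannot be told apart. Totals ranged from 19921398 to 37917806 counts per library.

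Gch1 encodes the first enzyme of tetrahydrobiopterin synthesis. Levels are given in cpm, the standard scale on which the counts of a library are divided by its total, here after scaling by TMM. Gch1 was at 10.7 ± 0.979 cpm (SD, n = 6) in WT hearts and 5.51 ± 0.859 cpm in cmGch1 KO hearts, with a log2 fold change of -0.96 (adjusted p = 6.88e-04, edgeR's quasi-likelihood test). The cmGch1 KO replicates 2 and 3 stood apart from the other libraries. They had 87.1 and 99.6 cpm of Xist, the RNA of the inactive X chromosome, and 0 counts of 4 Y-linked genes, which is the pattern of female hearts. The other 10 libraries had the pattern of males, with at most 0.235 cpm of Xist and 168 to 193 cpm of the Y-linked genes. The labels give no sex. WT hearts had no library of the female pattern, so by these genes sex was not balanced between the genotypes. Each member that moved by over 1.5 times when cmGch1 KO replicates 2 and 3 were left out is therefore given with and without them. The 8 markers of cardiomyocytes summed to between 65372 and 68944 cpm in WT and between 59021 and 63203 cpm in cmGch1 KO hearts, without overlap. Of the 8 markers 7 had a lower mean, and 0 had an adjusted p under 0.05 by edgeR. Among all tested genes, taken singly, 53.3% were lower and 1.87% had groups without overlap.

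Insulin and IGF-1 bind 2 related receptor tyrosine kinases, the insulin receptor and the IGF-1 receptor. The activated receptors phosphorylate the insulin receptor substrates, which recruit phosphatidylinositol 3-kinase (PI3K). PI3K in turn leads to activation of the AKT kinases. In cardiac muscle AKT acts on the protein encoded by Tbc1d4 (AS160), which lets vesicles with the glucose transporter GLUT4 reach the cell surface, and it keeps FoxO transcription factors out of the nucleus. IGF signalling through the same route is known for its part in cardiomyocyte growth.

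The promoters of the receptor substrates are printed because Irs2 is a textbook target of FoxO factors, which bind insulin response elements, and because Irs2 varied more between hearts than the other members. The sequences are the 250 bases before a start site in RefSeq on GRCm38.p6, written 5′ to 3′ on the strand of the gene, and 9 of the 10 members, all but Insr, were matched to that table by symbol. Capitals mark an E-box (CACGTG) or the core of the insulin response element (TGTTTTG, or CAAAACA on the other strand). Irs1 is on the minus strand at chr1:82291440-82291689 and Irs2 on the minus strand at chr8:11008930-11009179.
Irs1: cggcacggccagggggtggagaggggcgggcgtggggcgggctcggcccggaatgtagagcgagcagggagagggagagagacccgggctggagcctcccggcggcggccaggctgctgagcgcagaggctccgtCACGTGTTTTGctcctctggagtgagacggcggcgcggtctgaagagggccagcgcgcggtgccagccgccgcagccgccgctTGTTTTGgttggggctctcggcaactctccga
Irs2: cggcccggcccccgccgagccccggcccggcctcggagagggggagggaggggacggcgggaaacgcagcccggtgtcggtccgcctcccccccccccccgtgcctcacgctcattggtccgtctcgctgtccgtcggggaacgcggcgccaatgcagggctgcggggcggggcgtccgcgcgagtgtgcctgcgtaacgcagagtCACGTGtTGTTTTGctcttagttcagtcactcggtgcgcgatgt

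In Irs1 the E-box lay 115 to 110 bases before the start and overlapped an insulin response element core at 111 to 105, and another core lay at 32 to 26. In Irs2 the E-box lay at 44 to 39 and a core at 37 to 31, with 1 base between them. Of the 32851 windows of that length in the table, 6.02% held the E-box, 5.56% held the core on either strand, and 0.295% held both. Among the 9 matched members both motifs were found in Irs1 and Irs2 and in no other. The FoxO site TGTTTAC was also searched as its reverse complement. It was present in 3.17% of the windows and in 1 member, upstream of an Akt1 start on the minus strand at chr12:112674885-112675134, where capitals mark it.
Akt1: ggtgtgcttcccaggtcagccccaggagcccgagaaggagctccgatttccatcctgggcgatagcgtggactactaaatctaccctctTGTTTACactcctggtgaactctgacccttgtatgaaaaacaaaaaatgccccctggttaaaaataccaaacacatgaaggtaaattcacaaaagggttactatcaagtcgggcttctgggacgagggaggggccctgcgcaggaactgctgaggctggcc

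These are matches of letters, and binding was not measured.

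All 10 members were expressed. Levels of different genes were compared after division by exon length, as cpm per kilobase of exon (rpkm), where the exon length is the union over all annotated transcripts. In WT hearts Akt1 had the highest level at 55.4 ± 5.2 rpkm (SD, n = 6), followed by Akt2 at 32.6 ± 2.22 rpkm, and the ranges of these 2 kinases did not overlap. This order rests on the exon length, 4098 bases for Akt1 and 7131 bases for Akt2. In cpm the 2 kinases overlapped, at 227 ± 21.3 for Akt1 and 232 ± 15.9 for Akt2. The regulatory subunit Pik3r1 was at 12.6 ± 3.03 rpkm, Tbc1d4 at 10.6 ± 1.09 rpkm, Insr at 9.46 ± 2.27 rpkm and Igfbp3 at 7.5 ± 1.32 rpkm. The order among these 4 genes was not resolved, since each range overlapped that of its neighbour. Irs1 followed at 2.30 ± 0.598 rpkm, Irs2 at 1.53 ± 0.464 rpkm and Igf1 at 1.19 ± 0.273 rpkm, again with overlapping neighbours. Igf1r was lowest at 0.510 ± 0.106 rpkm, and each WT library was below the lowest Igf1 value. The geometric mean of the Igf1r to Insr ratio was 0.0543 in WT hearts.

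**Figure D1:**
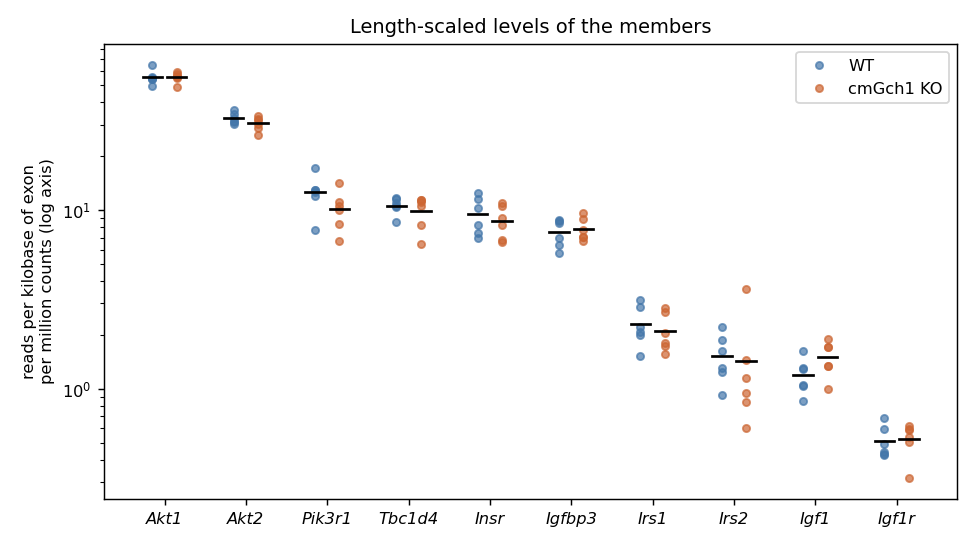
Length-scaled levels of the 10 members in cpm per kilobase of exon (rpkm) on a log axis, 1 point per library, with the mean of each genotype as a bar. Akt1 and Akt2 are highest and Igf1r is lowest in both genotypes.

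None of the 10 members differed between cmGch1 KO and WT hearts at an FDR under 0.05 (edgeR's quasi-likelihood test over 11225 genes, Benjamini-Hochberg adjustment). Of all tested genes 1.12% passed this threshold. No member passed an unadjusted p under 0.05 either, which 11.5% of all tested genes did. The Wald test of DESeq2 and limma on the deposited normalized values also gave 0 members at an adjusted p and 0 at an unadjusted p under 0.05. Unadjusted p-values under 0.05 appeared in other settings, for 3 members without cmGch1 KO replicate 6 and for 1 or 2 members in 6 more. Of the members 7 had a lower and 3 a higher mean in cmGch1 KO hearts, with log2 fold changes from -0.31 to 0.33 and a median of -0.08. Over all tested genes 53.3% were below 0, with a median of -0.01. In all 10 members the libraries of the 2 genotypes overlapped, as in all but 1.87% of the tested genes. The intervals below show how large a difference these hearts could still hold.

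**Figure D2:**
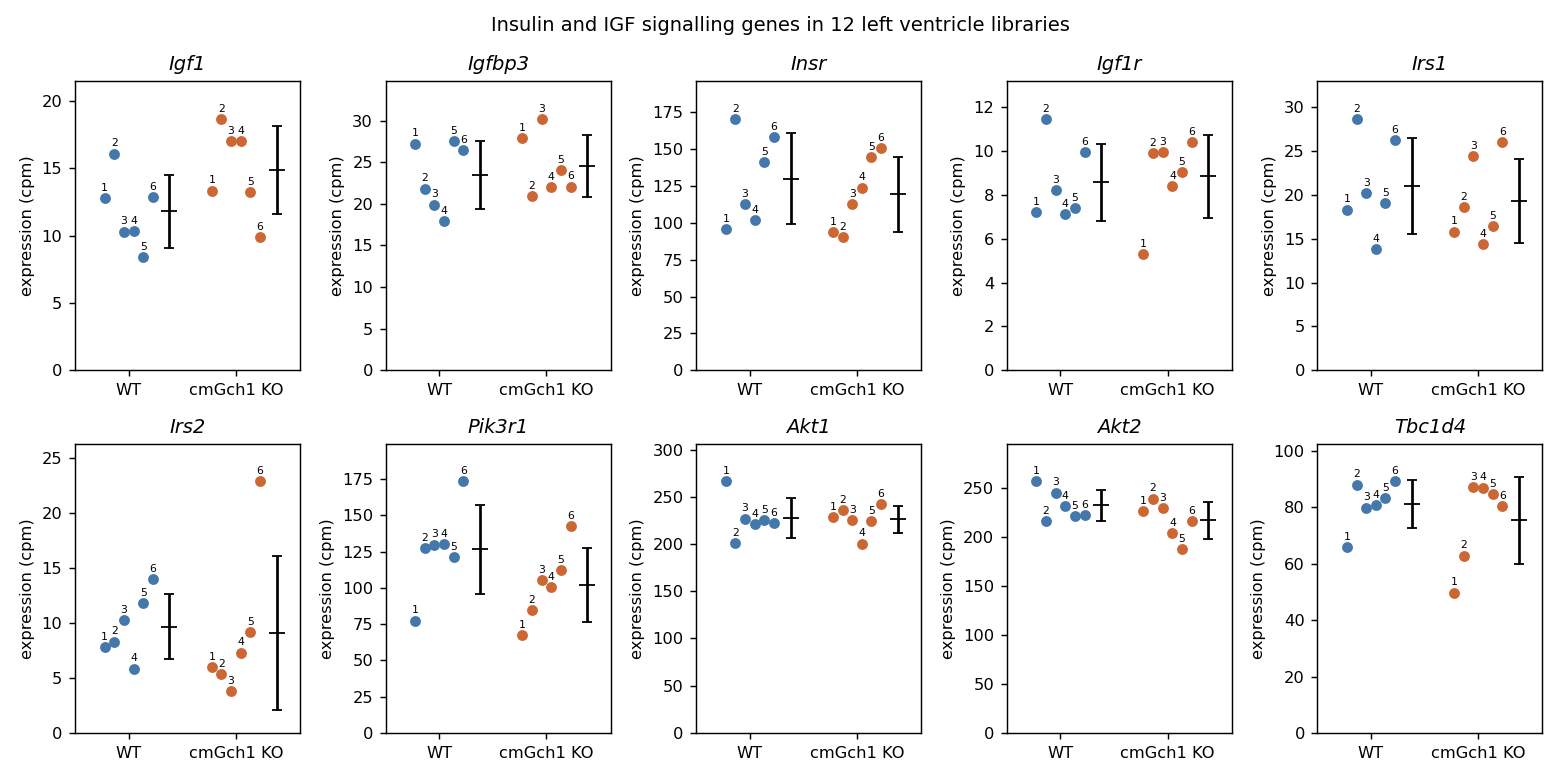
Expression of each member in cpm, scaled by the TMM factors, with 1 point per library labelled by its replicate number and the mean ± SD (n = 6) as a bar to the right of each genotype. WT and cmGch1 KO libraries overlap in all 10 panels, and cmGch1 KO replicate 6 stands apart for Irs2 at 22.8 cpm.

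Igf1 (ENSMUSG00000020053, chromosome 10, 87858265 to 87937042, plus strand) encodes the growth factor, which in the heart comes mainly from non-myocytes. It ran from 8.41 through a median of 11.6 to 16.1 cpm in WT and from 9.90 through a median of 15.2 to 18.7 cpm in cmGch1 KO hearts. The cmGch1 KO replicates 2, 3 and 4 were above every WT library. Igf1 had the largest positive log2 fold change of the members, 0.33 (95% interval -0.04 to 0.70, adjusted p = 0.507 by edgeR, two-sided exact permutation test p = 0.0931). Without the cmGch1 KO replicates 2 and 3 it was 0.18. Markers of the cell types that make IGF-1 lay in the same direction, since 8 of 8 fibroblast markers and 8 of 8 macrophage markers had higher means in cmGch1 KO hearts, 0 of them at an FDR under 0.05. Their sums ranged from 869 to 1147 cpm in WT and from 978 to 1227 cpm in cmGch1 KO hearts for fibroblasts, and from 224 to 361 cpm and from 295 to 432 cpm for macrophages. Of 8 endothelial markers 6 had higher means, and of 8 pericyte and smooth muscle markers 3 did. Over all tested genes 53.3% had a log2 fold change below 0. The marker sums were not taken without the cmGch1 KO replicates 2 and 3. The part of fibroblasts and macrophages in the Igf1 values was not tested.

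Igfbp3 (ENSMUSG00000020427, chromosome 11, 7206086 to 7213923, minus strand) encodes the main IGF carrier of the circulation. Its values ran from 17.9 through a median of 24.1 to 27.5 cpm in WT and from 21 through 23.1 to 30.2 cpm in cmGch1 KO hearts. The groups overlapped, with 2 cmGch1 KO libraries above every WT library, and the log2 fold change was 0.06 (95% interval -0.21 to 0.33, adjusted p = 0.925 by edgeR). It was 0.035 without the cmGch1 KO replicates 2 and 3. The length-scaled ratio of Igfbp3 to Igf1 had a geometric mean of 6.34 in WT and 5.29 in cmGch1 KO hearts (two-sided exact permutation test, p = 0.284, adjusted to 0.525 by Benjamini-Hochberg over 4 ratios).

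The receptor Insr (ENSMUSG00000005534, chromosome 8, 3122061 to 3279617, minus strand) ran from 95.6 through a median of 127 to 171 cpm in WT and from 90.4 through 118 to 151 cpm in cmGch1 KO hearts. Both genotypes had low and high libraries, and the spread within a genotype was larger than the difference between the means. The log2 fold change was -0.12 (95% interval -0.48 to 0.23, adjusted p = 0.871 by edgeR). It was -0.016 without the cmGch1 KO replicates 2 and 3, and from -0.21 to -0.031 with 1 library left out, nearest to 0 without WT replicate 2. Igf1r (ENSMUSG00000005533, chromosome 7, 67952827 to 68233668, plus strand), the receptor of IGF-1, ran from 7.12 through 7.81 to 11.5 cpm in WT and from 5.30 through 9.48 to 10.4 cpm in cmGch1 KO hearts. Its log2 fold change was 0.05 (95% interval -0.31 to 0.40, adjusted p = 0.963 by edgeR), and it was -0.03 without the cmGch1 KO replicates 2 and 3. The ratio of Igf1r to Insr did not differ beyond the spread between libraries, with a geometric mean of 0.0604 in cmGch1 KO hearts (two-sided exact permutation test, p = 0.394).

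The substrate Irs1 (ENSMUSG00000055980, chromosome 1, 82233101 to 82291416, minus strand) ran from 13.9 through a median of 19.6 to 28.7 cpm in WT, a range that held all cmGch1 KO libraries, which ran from 14.4 through 17.5 to 26.0 cpm. Its log2 fold change was -0.12 (95% interval -0.52 to 0.27, adjusted p = 0.893 by edgeR). It was -0.21 without the cmGch1 KO replicates 2 and 3, and -0.015 without WT replicate 2. Irs2 (ENSMUSG00000038894, chromosome 8, 10984681 to 11008458, minus strand), whose promoter is printed above, ran from 5.84 through 9.27 to 13.9 cpm in WT. In cmGch1 KO hearts it ran from 3.81 through 6.65 to 22.8 cpm, a 6-fold range that included both the lowest and the highest of the 12 libraries. The lowest values were those of replicates 2 and 3, and the highest was that of replicate 6. The log2 fold change of -0.06 therefore had a wide interval, from -0.85 to 0.72 (adjusted p = 0.979 by edgeR). It was 0.25 without the cmGch1 KO replicates 2 and 3 and -0.61 without cmGch1 KO replicate 6 (adjusted p = 0.314 by edgeR). For Irs2 these hearts thus fix neither a direction nor a size. An antisense gene overlaps an exon of Irs1 (Gm9747) and of Irs2 (9530052E02Rik), and since the strand setting of the counting is not given in the sources used here, reads of such pairs cannot be told apart. 9530052E02Rik itself had a median of 0 counts.

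Pik3r1 (ENSMUSG00000041417, chromosome 13, 101680563 to 101768217, minus strand) encodes the regulatory subunits of PI3K, p85α and its short forms. It ran from 77.4 through a median of 129 to 173 cpm in WT and from 67.2 through 103 to 143 cpm in cmGch1 KO hearts. Only WT replicate 1 of the WT hearts was below the cmGch1 KO median, and in both genotypes replicate 1 was lowest and replicate 6 highest. Pik3r1 had the most negative log2 fold change of the members, -0.31 (95% interval -0.70 to 0.09, adjusted p = 0.586 by edgeR, two-sided exact permutation test p = 0.162). With the replicate number as a block it was -0.31 as well, with a standard error of 0.069 against 0.18 (adjusted p = 0.0605 by edgeR). The labels do not say that equal numbers are pairs. Of the other regulatory subunits, Pik3r2 was at 32.4 ± 2.01 and 32.2 ± 3.2 cpm (SD, n = 6 each) in WT and cmGch1 KO hearts, and Pik3r3 at 17.8 ± 2.27 and 20.8 ± 1.52 cpm. The log2 fold change of Pik3r3 was 0.22 (adjusted p = 0.339 by edgeR).

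The kinases Akt1 (ENSMUSG00000001729, chromosome 12, 112653821 to 112674884, minus strand) and Akt2 (ENSMUSG00000004056, chromosome 7, 27591552 to 27640826, plus strand) varied least among the members. Akt1 ran from 201.1 through a median of 224 to 266 cpm in WT and from 200.6 through 227 to 242 cpm in cmGch1 KO hearts. Its log2 fold change was -0.01, and the 95% interval from -0.16 to 0.15 was among the narrowest of the members (adjusted p = 0.990 by edgeR). Without the cmGch1 KO replicates 2 and 3 it was -0.017. Akt2, the form most tied to glucose uptake, ran from 216 through 227 to 257 cpm in WT and from 188 through 222 to 240 cpm in cmGch1 KO hearts, 2 of which were below every WT library. Its log2 fold change was -0.10 (95% interval -0.25 to 0.06, adjusted p = 0.703 by edgeR), and it was -0.15 without the cmGch1 KO replicates 2 and 3. The length-scaled ratio of Akt2 to Akt1, which does not depend on how libraries are scaled, had a geometric mean of 0.589 in WT and 0.552 in cmGch1 KO hearts (two-sided exact permutation test, p = 0.13, with 0.519 after adjustment over 4 ratios).

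Tbc1d4 (ENSMUSG00000033083, chromosome 14, 101442360 to 101609191, minus strand) encodes the Rab GTPase-activating protein AS160. It ran from 66.0 through a median of 82.1 to 89.2 cpm in WT and from 49.8 through 82.7 to 87.1 cpm in cmGch1 KO hearts. The medians were alike, and cmGch1 KO replicates 1 and 2 lay below every WT library. The log2 fold change was -0.11 (95% interval -0.39 to 0.17, adjusted p = 0.852 by edgeR), and it was -0.013 without cmGch1 KO replicate 1. Its paralogue Tbc1d1 was at 16.8 ± 1.9 cpm in WT hearts and 19.2 ± 2.22 cpm in cmGch1 KO hearts, with a log2 fold change of 0.19 (adjusted p = 0.501 by edgeR).

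**Figure D3:**
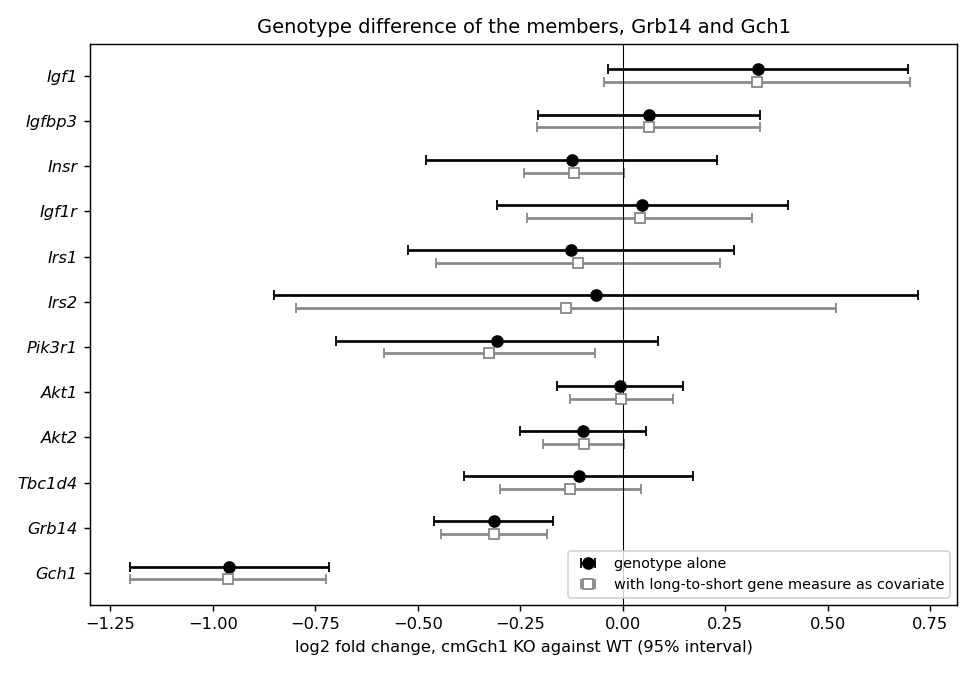
Log2 fold change between the genotypes, cmGch1 KO over WT, with its 95% interval for the 10 members, Grb14 and Gch1, from the fit on genotype alone (filled circles) and from the fit with the balance of long and short genes as a covariate (open squares). Every member's interval from the first fit spans 0, and those of Grb14 and Gch1 do not.

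The members differed in how much they varied between hearts of 1 genotype. The SD of log2 cpm within genotype was 0.70 for Irs2, larger than for 99.3% of tested genes when ranked among them. It was 0.37 for Pik3r1, 0.36 for Irs1, 0.33 for Igf1 and for Insr and 0.32 for Igf1r, at percentiles from 87.6 to 92.9. Tbc1d4 was at 0.26 and Igfbp3 at 0.24. Akt1 and Akt2 were at 0.11 each, at percentiles of 14.9 and 14.8. Receptors and substrates thus stood on the variable side of the transcriptome and the AKT kinases on the stable side.

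Part of this spread ran along an axis that many genes shared. For each library the median deviation of the shortest tested genes (exon length up to 2860 bases) was subtracted from that of the longest (from 7049 bases), on the log2 scale. This balance ran from -0.41 in cmGch1 KO replicate 1 and -0.35 in WT replicate 1 to 0.27 in WT replicate 6, with both genotypes spread along it. Insr, Igf1r, Igf1, Irs1, Pik3r1, Akt2 and Tbc1d4 were themselves in the long set. As a set the long genes rise with the balance by construction, so the p-values below do not measure a link apart from gene length. Over the 12 libraries Insr followed it with a Pearson r of 0.937 (permutation p = 1e-05, the smallest that 100000 permutations can give) and a Spearman rho of 0.916 (permutation p = 6.0e-05). The r was 0.933 without the 2 libraries farthest from the median of the balance, 0.984 within WT and 0.925 within cmGch1 KO hearts. Only 3.31% of the tested genes of any length followed the balance as closely as Insr, in either direction. The share among long genes alone was not taken.

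Of the 10 relations of this kind, 5 had an adjusted p under 0.05 for Pearson's r. Tbc1d4 followed the balance with an r of 0.795 (permutation p = 7.30e-04, adjusted 0.00365) and a rho of 0.783 (permutation p = 0.00398, adjusted 0.0199), and with an r of 0.619 without the 2 farthest libraries. Pik3r1 had an r of 0.719 (permutation p = 0.00813, adjusted 0.0177) and a rho of 0.615 (permutation p = 0.0375, adjusted 0.0625), and Igf1r had an r of 0.703 (permutation p = 0.00887, adjusted 0.0177) and a rho of 0.748 (permutation p = 0.00681, adjusted 0.0227). These 2 relations rested in part on the 2 farthest libraries, without which r was 0.417 for Pik3r1 and 0.435 for Igf1r. Akt2 ran the other way, with an r of -0.703 (permutation p = 0.00789, adjusted 0.0177) and a rho of -0.720 (permutation p = 0.00991, adjusted 0.0248), and its r was -0.706 without those libraries. An r of 0.7 or more in either direction was common, in 35.7% of tested genes. Igf1 and Igfbp3 showed no such relation, with an r of -0.0448 and 0.0201 (permutation p = 0.888 and 0.949). What moved the balance between libraries was not tested.

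**Figure D4:**
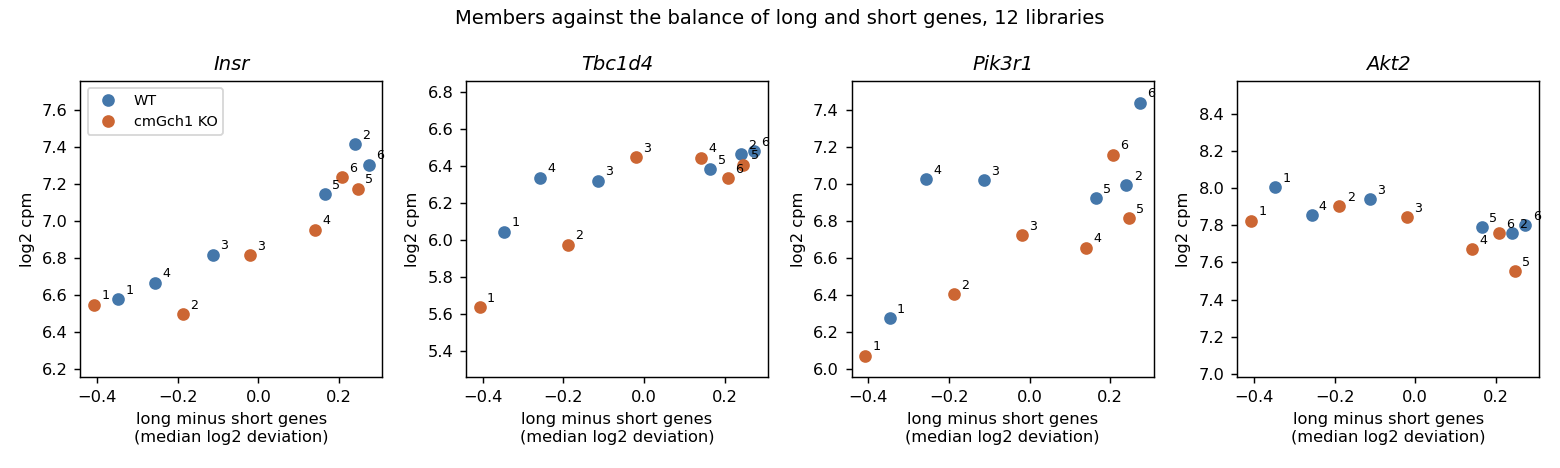
Log2 cpm of Insr, Tbc1d4, Pik3r1 and Akt2 against the balance of long and short genes in each of the 12 libraries, labelled by replicate number, on axes of equal height. Insr climbs with the balance in both genotypes (r = 0.937), Tbc1d4 and Pik3r1 do so less tightly, and Akt2 falls (r = -0.703).

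With this balance as a covariate, a fit chosen after the data were seen, the standard error of Insr went from 0.17 to 0.06. Its log2 fold change was then -0.12 (95% interval -0.24 to 0.00, adjusted p = 0.251 by edgeR). For Pik3r1 the log2 fold change was -0.33 (95% interval -0.58 to -0.07, unadjusted p = 0.0169, adjusted p = 0.132 by edgeR). For Akt2 it was -0.10 (95% interval -0.20 to 0.00, adjusted p = 0.256 by edgeR). No member reached an FDR under 0.05 in that fit, where 5.69% of all tested genes did.

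Between the members themselves 45 pairs were correlated over the 12 libraries. Pik3r1 and Tbc1d4 gave the highest r, 0.811 (permutation p = 0.00112, adjusted 0.0493), with a rho of 0.503 (permutation p = 0.0971, adjusted 0.29) and an r of 0.560 without the 2 libraries farthest from the median of Pik3r1. Insr and Tbc1d4 had an r of 0.729 (permutation p = 0.00219, adjusted 0.0493) and a rho of 0.762 (permutation p = 0.00567, adjusted 0.0974), and an r of 0.697 without the 2 farthest libraries. No pair passed an adjusted p under 0.05 by both measures, and Insr, Tbc1d4 and Pik3r1 share the balance described above. Irs1 and Irs2, with both motifs in their promoters, had an r of 0.391 (permutation p = 0.208) and a rho of 0.476 (permutation p = 0.12).

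For each member the tested gene with the most similar pattern was found by Pearson's r of log2 cpm over the 12 libraries, after centring on each genotype. As the best of 11224 genes these values are high by selection and are given as a description, without a test. The nearest gene to Insr was Sptbn1 (0.985), which encodes a spectrin, and the nearest to Pik3r1 was Rnf111 (0.972), which encodes a ubiquitin ligase. For Tbc1d4 it was Fchsd2 (0.960), for Igf1r Ppp1r13l (0.962), for Akt2 Szrd1 (0.940), for Akt1 Phc2 (0.916) and for Irs1 Sppl3 (0.892). Irs2 was nearest to Maob (0.933), which encodes a monoamine oxidase. Igf1 was nearest to Sox9 (0.888), a transcription factor gene of the mesenchyme, and Igfbp3 to Cacnb1 (0.888).

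Beyond the members, 109 further genes of the pathway were listed by role, of which 108 had a row in the table and 96 were tested. Of these, 65 had a lower and 31 a higher mean in cmGch1 KO hearts, and the median log2 fold change was -0.05 against -0.01 for all tested genes. Grb14 was lower at an FDR under 0.05, against 0.445% of all tested genes, and 0 were higher, against 0.677%. By unadjusted p-values under 0.05 the list held 10 of 96 genes with a lower mean, a larger share than the 4.51% of all tested genes. It held 4 of 96 with a higher mean, a smaller share than the 7.01% of all tested genes. Together they made up 14.6% of the list, near the 11.5% of all tested genes, and no set test was run. Of the ligands and receptors in the list, Ins2, an insulin gene, had at most 1 count in a library, and the insulin receptor-related receptor gene Insrr at most 2 counts.

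Grb14 encodes an adaptor that binds the activated insulin receptor and inhibits its kinase. It ran from 146 through a median of 155 to 171 cpm in WT and from 111 through 128 to 138 cpm in cmGch1 KO hearts. The highest cmGch1 KO library lay under the lowest WT library. Groups without overlap were found for 2 of the 96 tested genes of the list, Grb14 included, and for 1.87% of all tested genes. The fall was 0.31 on the log2 scale, from 157 ± 9.94 to 126 ± 10 cpm (SD, n = 6 each, log2 fold change -0.31, 95% interval -0.46 to -0.17, adjusted p = 0.0404 by edgeR). It was small but large against the spread, since the SD of Grb14 within genotype, 0.10 on the log2 scale, was at the percentile 11.5. The lowest of all were cmGch1 KO replicates 2 and 3, at 111 and 117 cpm. Without them the cmGch1 KO libraries, from 125 to 138 cpm, were still below every WT library, but the log2 fold change was -0.25 and the adjusted p was 0.233 by edgeR. The call held in 12 of 24 other settings. It was lost in 8 of the 12 fits that left out 1 library, those without WT replicate 1, 3, 4, 5 or 6 or cmGch1 KO replicate 2, 3 or 5. Over all 12 of these fits the log2 fold change ran from -0.34 to -0.29 and the adjusted p from 0.0303 to 0.108. The sum of the cardiomyocyte markers was lower in the same hearts, with 0 of the 8 at an FDR under 0.05. The part of these markers in the fall was not tested. The related adaptor Grb10, named after its values were seen, was at 78.0 ± 10.1 cpm in WT hearts and 77.8 ± 11.3 cpm in cmGch1 KO hearts.

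**Figure D5:**
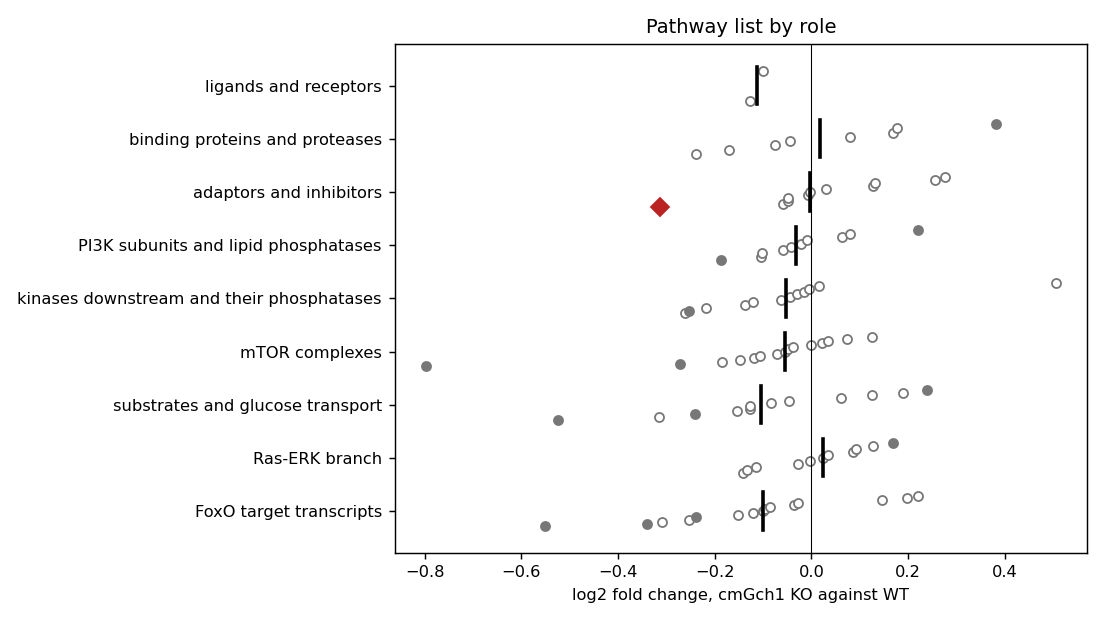
Log2 fold change between the genotypes, cmGch1 KO over WT, for the 96 tested genes of the pathway list by role, with the median of each role as a vertical bar. The red diamond is Grb14, the gene with an FDR under 0.05, filled circles have an unadjusted p under 0.05 alone, and open circles neither.

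In the family of IGF binding proteins, Igfbp7 had the highest level, 106 ± 13.5 rpkm in WT, and Igfbp5 and Igfbp4 followed at 21.6 and 19.4 rpkm. Igfbp1 had at most 1 count and Igfbp2 at most 19 counts in a library, and neither was tested. The log2 fold changes of the 4 tested paralogues were 0.18 for Igfbp4, -0.24 for Igfbp5, -0.08 for Igfbp6 and 0.17 for Igfbp7, with adjusted p-values by edgeR between 0.523 and 0.934. Over 24 other settings the log2 fold change ran from 0.125 to 0.253 for Igfbp4 and from -0.319 to -0.129 for Igfbp5. It ran from -0.255 to 0.035 for Igfbp6 and from 0.051 to 0.248 for Igfbp7. Igfals, which encodes the acid-labile subunit that stabilises circulating IGF complexes, was at 5.32 ± 1.0 cpm in WT hearts and 6.92 ± 0.853 cpm in cmGch1 KO hearts. In cmGch1 KO hearts 5 libraries were above every WT library, and the log2 fold change was 0.38 (95% interval 0.08 to 0.68, adjusted p = 0.267 by edgeR). Igf2 was at 28.8 ± 3.77 and 26.4 ± 4.13 cpm, and Igf2r, whose product clears IGF-2, at 144 ± 27.1 and 134 ± 22.9 cpm. The log2 fold change of Igf2r was -0.10, and -0.012 without the cmGch1 KO replicates 2 and 3.

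The 10 tested PI3K subunits and lipid phosphatases had a median of -0.03 on the log2 scale, with 7 lower and 3 higher, and the 12 kinases downstream and their phosphatases had a median of -0.05, with 10 lower and 2 higher. Phlpp1, a phosphatase that inactivates AKT, was at 29.6 ± 2.39 and 24.8 ± 3.26 cpm (log2 fold change -0.25, adjusted p = 0.267 by edgeR). The 15 tested genes of the mTOR complexes had a median of -0.05, with 11 lower and 4 higher. Tsc1, which restrains mTOR, was at 48.0 ± 5.44 and 39.7 ± 5.27 cpm (log2 fold change -0.27, adjusted p = 0.262 by edgeR). Ddit4, an inhibitor of mTOR that is named after its values were seen, had the most negative value of the list, -0.80 (95% interval -1.51 to -0.09, adjusted p = 0.345 by edgeR), and its libraries ran from 27.8 to 153 cpm among WT and from 30.8 to 56.2 cpm among cmGch1 KO hearts. With the balance of long and short genes as a covariate, Phlpp1, Tsc1, Trim63 and Foxo4 joined Grb14 as lower at an FDR under 0.05, in a fit that called 5.69% of all tested genes, Foxo4 being named after its values were seen.

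The 12 tested substrates and genes of glucose transport had a median of -0.10 on the log2 scale, with 8 lower and 4 higher. The 11 genes of the Ras-ERK branch had a median of 0.02, and Map2k1, which encodes a kinase of ERK, was at 51.1 ± 1.77 cpm in WT hearts and 57.5 ± 4.65 cpm in cmGch1 KO hearts (log2 fold change 0.17, adjusted p = 0.289 by edgeR, and 0.10 without the cmGch1 KO replicates 2 and 3). The 15 FoxO target transcripts had a median of -0.10, with 12 lower and 3 higher and none at an FDR under 0.05. Of the 15, 20% had an unadjusted p under 0.05 by edgeR, against 11.5% of all tested genes. The share was 25% for substrates and glucose transport, 20% for PI3K subunits and lipid phosphatases, and at most 13.3% in the other roles. The 3 FoxO target transcripts with such a p had lower means. They were Trim63, a ubiquitin ligase gene of muscle atrophy, at -0.24 (adjusted p = 0.233 by edgeR), and the stress sensor gene Sesn1 at -0.34 (adjusted p = 0.294 by edgeR). The last was Klf15, a regulator of cardiac lipid and amino acid metabolism, at -0.55 (adjusted p = 0.256 by edgeR). Without the cmGch1 KO replicates 2 and 3 the values were -0.14 for Trim63, -0.17 for Sesn1 and -0.36 for Klf15, each smaller by over 1.5 times.

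Prkcz, which encodes an atypical protein kinase C downstream of PI3K, was not tested because it passed the minimum of 3 cpm in only 5 libraries, all cmGch1 KO, and it is named after its values were seen. It ran from 1.51 through a median of 2.29 to 2.71 cpm in WT and from 2.83 through 4.16 to 4.65 cpm in cmGch1 KO hearts. The groups did not overlap. The share of 1.87% without overlap was taken over the tested genes, which do not include Prkcz, and not among genes of such low counts. With no filter on low counts its log2 fold change was 0.81 (adjusted p = 0.0299 by edgeR), in a fit that called 0.572% of 24643 genes. As Prkcz was picked from its values, these results are given as a description.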

How the data were processed

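RNA from the left ventricle of 6 WT and 6 cmGch1 KO mice was sequenced on stranded paired-end libraries, and groups and replicate numbers follow the sample labels. The authors deposited raw counts per Ensembl gene, generated with HISAT2, Picard and featureCounts on GRCm38, and a table of the same genes with normalized values on a log2 scale whose tool is not given in the sources used here. Symbols, coordinates and exon lengths came from GENCODE M21 (GRCm38), in which 26582 of 26921 identifiers were found. The 11225 genes that passed 3 cpm in 6 or more libraries were tested with edgeR 4.0.16 (TMM, quasi-likelihood, genotype alone, Benjamini-Hochberg adjustment, FDR threshold 0.05) in R 4.3.3. Standard errors came from the fold change and its F statistic, and 95% intervals from the t distribution of that test. The cpm values use library sizes multiplied by TMM factors. Exact permutation tests ran over all 924 splits, for which 0.00216 is the smallest p, and correlations were permuted 100000 times. The steps were tested on simulated counts.

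Alternatives used DESeq2 1.42.0, limma 3.58.1, sva 3.50.0 (1 surrogate variable), other filters, a sex-linked covariate (Xist minus Y-linked genes) and libraries left out. One covariate, the balance of long and short genes, was added after seeing the data. Depth per library lies between 19921398 and 37917806 counts, each member had at least 88 counts in every library, and the reads carry no molecular identifiers. The labels do not say which libraries came from separate litters or sequencing units, so p-values measure the spread between these hearts. The members, the pathway list and the marker lists were chosen with earlier results of these data known. The genes named are the members, Gch1, the 8 pathway genes with the smallest p, the paralogues of members (1 is not reported here) and the nearest gene to each member. Grb10, Ddit4, Foxo4 and Prkcz were added after their values were seen.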

Additional observations from a re-analysis of the deposited data

Results flagged for a closer look

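In 66 groups of 6 values (the named genes in each genotype and the 4 ratios), 4 single libraries stood apart, with a gap to the nearest library that passed Dixon's 95% critical value. Chance alone gives about 1 such group in 20, so a few of 66 groups can be flagged by chance, and the flags are given as a description. Irs2 was at 22.8 cpm in cmGch1 KO replicate 6, against 9.16 cpm in the next library. Igfals was at 3.32 cpm in WT replicate 2, against 5.37 cpm in the next library above it. Igfbp5 was at 139 cpm in cmGch1 KO replicate 5, against 108 cpm in the next library, and Igfbp7 was at 160.2 cpm in WT replicate 1, against 128 cpm.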

How the results depend on the processing

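No member passed an FDR of 0.05 under any of 24 other settings, among them each of the 12 libraries left out, and the lowest adjusted p of a member by edgeR was 0.0605, for Pik3r1 with the replicate number as a block. Means near each other changed sign. Scaling by library size alone gave log2 fold changes of 0.0027 for Irs2, 0.071 for Akt1, 0.069 for Pik3r2 and 0.0090 for Igfbp6. The sex-linked covariate gave -0.051 for Igf1r and 0.23 for Irs2, and leaving out cmGch1 KO replicates 2 and 3 gave -0.035 for Igf1r, 0.25 for Irs2, -0.055 for the log2 ratio of Igf1r to Insr and 0.29 for that of Irs2 to Irs1. With 1 library left out the log2 fold changes ran from -0.0092 to 0.11 for Igfbp3, from -0.011 to 0.16 for Igf1r, from -0.61 to 0.087 for Irs2, from -0.039 to 0.044 for Akt1, from -0.058 to 0.017 for Pik3r2 and from -0.20 to 0.035 for Igfbp6, and the log2 ratio of Irs2 to Irs1 from -0.40 to 0.10. In the pathway list the number lower was 0 with library size alone, without a filter, with the sex-linked covariate and without cmGch1 KO replicates 2 and 3, and 5 with 1 surrogate variable and with the balance of long and short genes. It ran from 0 to 1 with 1 library left out. The number higher was 1, Prkcz, without a filter and with filterByExpr, and ran from 0 to 1 with 1 library left out. In the fits with 1 library left out Prkcz entered only through the cmGch1 KO libraries, where it was high, so its calls there are given as counts and support nothing. The cause of these changes was not tested, except that looser filters test more genes.

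The replicate numbers were not taken as pairs. Deviations of WT and cmGch1 KO libraries with the same number had correlations from -0.13 to 0.68, and 3 of the 6 WT libraries correlated best with their own number. With the replicate block 0 members and 1 pathway gene (Grb14, log2 fold change -0.32) passed the threshold, and over all genes 112 were higher and 76 lower, against 76 and 50. With this block 2 members had an unadjusted p under 0.05, and Pik3r1 had a log2 fold change of -0.31 with a standard error of 0.069, against 0.18 without the block.
Over all tested genes the Wald test of DESeq2 called 218 higher and 155 lower, 1 surrogate variable 305 and 331, the balance of long and short genes 308 and 331, the sex-linked covariate 41 and 24, and the fit without cmGch1 KO replicates 2 and 3 called 20 and 18. Scaling by library size alone called 116 and 36 and moved the median log2 fold change of all genes from -0.01 to 0.07.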
